A study of Mus musculus with 8 samples.

Results

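CD45+ immune cells of tumors grown from a pair of independently derived resistant mouse mammary carcinoma lines, E0771-Res2 and E0771-Res1, were compared across all genes, with the mouse as the unit. Cells with 500 to 6000 detected genes and under 10% of transcripts from mitochondrial genes were kept, which left 8878 of the 10605 kept cells of the series, 3561 from 3 E0771-Res1 mice and 5317 from 3 E0771-Res2 mice. The unique molecular identifiers (UMIs, which count captured transcripts) were summed per mouse over all kept cells. They were also summed separately over a lymphoid gate, meaning cells with at least 2 UMIs in total of Cd3d, Cd3e, Cd3g and Ncr1, and over the other cells, which lie outside that gate. The gate held 487 E0771-Res1 and 549 E0771-Res2 cells, and the other cells numbered 3074 and 4768.

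E0771 is a mammary carcinoma line of C57BL/6 origin. E0771-Res1 and E0771-Res2 are lines that the authors set up from E0771 tumors that came back after paclitaxel plus anti–PD-1 therapy, so each stands for 1 relapse and not for resistant tumors in general. Cells were implanted into the mammary fat pad of female mice, tumors were taken on day 18, and CD45+ cells were sorted, tagged by mouse with multiplexing oligos and pooled. The labels name no treatment, host genotype or age for these 6 mice, and the parental line, labelled naive E0771, is represented by 2 further mice. Every difference below is E0771-Res2 minus E0771-Res1 on the log2 scale with its standard error (SE), and values of single mice are given in the order of replicates 1, 2 and 3.

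Most CD45+ cells in tumors of this kind are macrophages and monocytes. Macrophages take up dying cells and lipid, digest them in lysosomes with cathepsins and acid hydrolases, and can show fragments to CD4+ T cells on MHC class II, whose transcription depends on the coactivator Ciita. Inflammatory monocytes and macrophages instead release IL-1, prostaglandins and chemokines under the control of NF-kB. Macrophages that hold much lipid are known for Trem2, Gpnmb, Fabp5 and cathepsin genes, and MITF and TFEB are transcription factors of lysosomal genes.

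The promoters of genes that carry the contrast are shown first: a lysosomal protease and a lysosomal glycoprotein gene that were higher in E0771-Res2, and an MHC class II chaperone and an inflammasome gene that were lower. H2-Eb1, an MHC class II chain gene that did not pass the test, is shown beside them. Each sequence is the 250 bases before the transcription start in RefSeq (GRCm38.p6), 5′ to 3′ on the strand of the gene, in lower case, with motif matches in capitals. The motifs searched on both strands were GATTGG (the core of the MHC class II Y box, read as CCAATC on the other strand), TCATGTG (the core of the MITF M box), TCACGTGA (the E box of MITF and TFEB) and the NF-kB motif.
Ctsk, chr3:95498960-95499209, plus strand: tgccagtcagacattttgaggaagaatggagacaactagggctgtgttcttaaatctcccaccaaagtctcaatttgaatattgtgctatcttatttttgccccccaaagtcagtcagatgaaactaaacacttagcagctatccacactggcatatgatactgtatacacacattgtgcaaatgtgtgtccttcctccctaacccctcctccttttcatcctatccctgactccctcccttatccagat
Gpnmb, chr6:49036268-49036517, plus strand: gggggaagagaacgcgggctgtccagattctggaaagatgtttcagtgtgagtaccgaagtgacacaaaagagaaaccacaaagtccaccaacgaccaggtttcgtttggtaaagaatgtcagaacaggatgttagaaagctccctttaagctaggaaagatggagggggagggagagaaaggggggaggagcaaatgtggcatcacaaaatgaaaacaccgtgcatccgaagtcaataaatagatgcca
H2-DMb1, chr17:34152941-34153190, plus strand: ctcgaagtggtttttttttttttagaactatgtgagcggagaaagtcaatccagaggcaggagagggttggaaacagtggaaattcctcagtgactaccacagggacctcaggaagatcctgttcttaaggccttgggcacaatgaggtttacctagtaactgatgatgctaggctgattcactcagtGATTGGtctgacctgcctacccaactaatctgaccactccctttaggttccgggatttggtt
H2-Eb1, chr17:34305617-34305866, plus strand: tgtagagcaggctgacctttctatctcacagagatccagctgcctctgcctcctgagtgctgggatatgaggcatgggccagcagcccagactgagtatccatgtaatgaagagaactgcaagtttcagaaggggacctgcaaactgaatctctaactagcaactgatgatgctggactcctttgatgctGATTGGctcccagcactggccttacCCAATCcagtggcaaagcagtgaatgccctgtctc
Nlrp3, chr11:59541319-59541568, plus strand: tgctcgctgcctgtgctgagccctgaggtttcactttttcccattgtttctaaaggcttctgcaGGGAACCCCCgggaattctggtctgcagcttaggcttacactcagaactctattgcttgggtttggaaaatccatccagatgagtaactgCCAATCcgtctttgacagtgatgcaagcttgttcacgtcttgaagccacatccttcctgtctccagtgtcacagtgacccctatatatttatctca

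Of 27025 RefSeq promoters of this length, 15.1% held GATTGG, 3.21% held TCATGTG, 0.803% held TCACGTGA and 7.03% held the NF-kB motif. The capitals mark 1 GATTGG match in H2-DMb1, 62 bases before the start, 2 GATTGG matches in H2-Eb1, and, in Nlrp3, 1 GATTGG match 96 bases and 1 NF-kB match 186 bases before the start. The Ctsk and Gpnmb windows held none of the 4 motifs. Among called genes of the MHC class II, lipid-associated, lysosomal, IL-1 and IL-18, and NF-kB response lists described further on, 17 were matched to a promoter of this set. H2-Ab1, Cd74, Ciita, Fabp4, Fabp5, Ctsb and Atp6v0d2 were not matched. They were not searched, and the counts below leave them out. Of these 17, GATTGG was found in 5 (H2-DMb1, Lpcat2, Pltp, Cd68 and Nlrp3), the NF-kB motif in 3 (Plin2, Grn and Nlrp3), TCATGTG in 1 (Grn) and TCACGTGA in 1 (Il1r2). By list, any of the 4 motifs was found in 1 of 2 MHC class II genes, 3 of 6 lipid-associated genes, 2 of 5 lysosomal genes, 2 of 4 genes of the IL-1 and IL-18 system and 0 of 3 NF-kB response genes. A match describes the letters of the window only.

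The kept cells numbered 2020, 604 and 937 in the E0771-Res1 mice and 1842, 1514 and 1961 in the E0771-Res2 mice, with 5264536 to 18544500 and 10181296 to 14105279 UMIs per mouse. The median number of UMIs per cell was 8138.5, 8160 and 7631 in E0771-Res1 mice against 7001, 5677.5 and 5589 in E0771-Res2 mice, a difference of -1887 that reached p = 0.1 in the two-sided exact permutation test, the smallest p that 3 mice against 3 allow. Depth per cell therefore moved with the line. Its part in the results was examined by thinning every cell with at least 2500 UMIs to that number and leaving out cells below it. This gave 380 calls among 9928 genes tested over all cells, 218 of them among the 341 described next. Of those 341 genes, 317 had a value in the thinned run. Keeping only cells with at least 2000 UMIs gave 332 calls, 325 of them among the 341. That run did not make depth equal, with mean medians of 8324 UMIs in E0771-Res1 and 6541 in E0771-Res2. Ptprc, which encodes CD45, was detected in 92.5% to 94.4% of E0771-Res1 cells and 86.7% to 89.3% of E0771-Res2 cells, while Epcam, a marker of epithelial tumor cells, was found in 0.357% to 1.78% over the 6 mice. No barcode was shared between mice. Malat1, a transcript kept in the nucleus, was higher in E0771-Res2 by 0.49 (SE 0.08, edgeR adjusted p = 0.0123). The mice of each line were sequenced as separate tagged samples, and replicates of a line differed by more than counting noise (chi-square per degree of freedom 6.21 to 13.2).

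**Figure D1:**
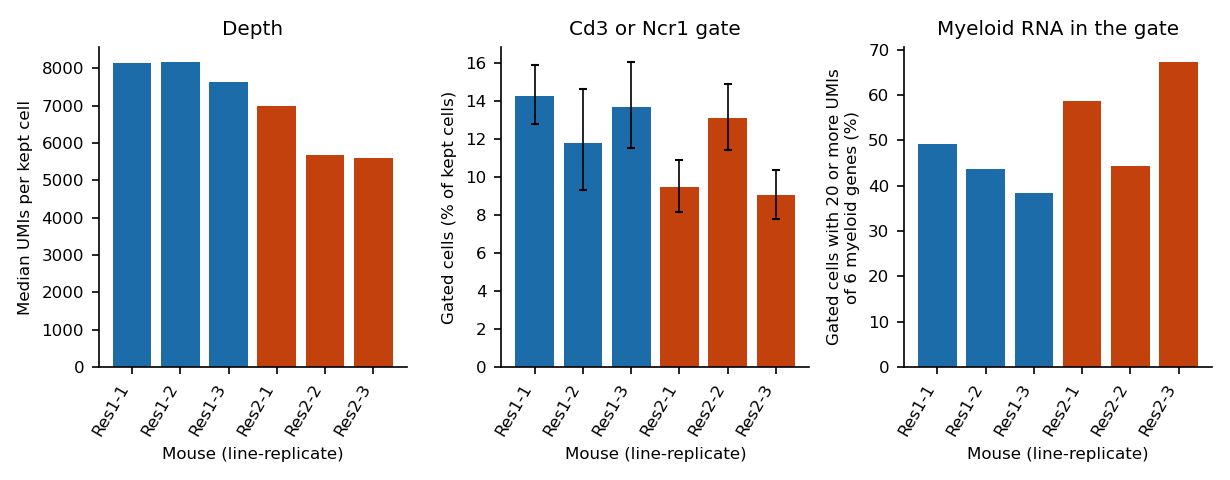
Median UMIs per kept cell, percentage of kept cells in the lymphoid gate with its 95% exact binomial interval, and percentage of gated cells with 20 or more UMIs of the 6 myeloid genes, each bar being 1 of 3 E0771-Res1 (blue) or 3 E0771-Res2 (orange) mice. The median UMIs of the E0771-Res2 mice (5589 to 7001) all lie below those of the E0771-Res1 mice (7631 to 8160), while both kinds of share overlap between the lines.

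The lymphoid gate did not hold lymphocytes alone. Of its cells, 49.3%, 43.7% and 38.3% in the E0771-Res1 mice and 58.6%, 44.4% and 67.2% in the E0771-Res2 mice carried 20 or more UMIs of 6 myeloid genes (C1qa, C1qb, C1qc, Cd68, Csf1r and Lyz2), against 67.6% to 79.7% of the other cells. No doublet was removed, since Scrublet marked 30 of 10605 cells, or 0.283%, a rate at which the caller is taken not to have worked. The main gated results are therefore also given over gated cells with under 20 such UMIs, a split chosen after the data were seen. The gate took 14.3%, 11.8% and 13.7% of kept cells in E0771-Res1 against 9.45%, 13.1% and 9.03% in E0771-Res2. The shares overlap, and their difference of -2.71 percentage points gave p = 0.2 in the two-sided exact permutation test.

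Over all kept cells, 341 of 11722 tested genes differed between the lines at an adjusted p under 0.05 by the edgeR quasi-likelihood test, which is 2.91% of those tested. Of these, 216 were higher (1.84% of genes tested) and 125 lower (1.07%) in E0771-Res2. The median absolute difference of the called genes was 0.73, and 90 of them differed at least 2-fold, 69 higher and 21 lower. The 3 mice of one line lay wholly above the 3 of the other for each called gene, as they did for 24.3% of all tested genes. The number of calls rested on single mice: it was 48 without replicate 3 of E0771-Res2, 114 without replicate 1 of E0771-Res2 and 141 without replicate 3 of E0771-Res1. In sums of this kind, a change in the number of cells of a type and a change of RNA per cell cannot be told apart. The p-values measure the spread between mice of 1 experiment.

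The largest increases in E0771-Res2, among genes with a mean log2 CPM of at least 5, were in Ctsk and Gpnmb. Ctsk (chr3:95499256-95509362, GRCm38), which encodes the lysosomal protease cathepsin K, stood at 22.1, 32.5 and 16.4 counts per 1000000 UMIs (CPM, with TMM scaling) in E0771-Res1 and at 130, 83.4 and 119 CPM in E0771-Res2. The difference was 2.27 (SE 0.22, adjusted p = 0.00165). Gpnmb (chr6:49036546-49070929), a transmembrane glycoprotein of lysosomes and melanosomes, stood at 73.4, 120 and 114 CPM in E0771-Res1 and at 505, 314 and 460 CPM in E0771-Res2, a difference of 2.07 (SE 0.20, adjusted p = 0.00165). For both genes the lowest E0771-Res2 mouse, replicate 2, was still more than 2-fold above the highest E0771-Res1 mouse. Fabp5, a cytosolic fatty acid carrier outside the 10 largest increases, stood at 1593, 1583 and 1269 CPM against 3027, 2204 and 2768 CPM, a difference of 0.85 (SE 0.12, adjusted p = 0.0079). Its relative Fabp4 (chr3:10204088-10208576) stood at 27.6, 51.2 and 27.6 CPM against 85.3, 80.0 and 78.2 CPM, a difference of 1.24 (SE 0.19, adjusted p = 0.00975).

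Igf1 (chr10:87858265-87937042), a growth factor that macrophages secrete, stood at 33.6, 40.6 and 29.8 CPM in E0771-Res1 and at 130, 62.6 and 95.02 CPM in E0771-Res2, a difference of 1.48 (SE 0.22, adjusted p = 0.00865). Replicate 2 was the lowest of the E0771-Res2 mice for Igf1, Ctsk and Gpnmb alike. Syngr1, which encodes a vesicle membrane protein, rose by 1.39 (SE 0.13) from 25.1 to 32.1 CPM in E0771-Res1 mice to 63.0 to 87.9 CPM in E0771-Res2 mice. Further genes among the 10 largest increases were Il7r (1.05), a receptor chain for IL-7 and TSLP, Hpgds (1.04), a prostaglandin D synthase, Dnmt3a (1.03), a DNA methyltransferase, and Gdf15 (0.96), a stress-induced cytokine. Gdf15 was the least firm of them, since it stood at 200.3 CPM in replicate 2 of E0771-Res1 against 243.8 CPM in the lowest E0771-Res2 mouse, passed with an adjusted p of 0.0438, and did not pass under DESeq2 or when any mouse except replicate 2 of E0771-Res1 was left out.

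The largest decreases by the same rule included genes of inflammation. Il1r2 (chr1:40074079-40125231), the decoy receptor that captures IL-1 without signaling, stood at 70.0, 94.3 and 91.2 CPM in E0771-Res1 and at 33.3, 34.4 and 42.1 CPM in E0771-Res2, a difference of -1.21 (SE 0.13, adjusted p = 0.00167). Ccl12, a chemokine that attracts CCR2+ monocytes, stood at 661, 486 and 377 CPM against 223, 275 and 224 CPM, a difference of -1.08 (SE 0.17, adjusted p = 0.0107). Ptgs2, the inducible cyclooxygenase of prostaglandin synthesis, stood at 136, 271 and 151 CPM against 87.4, 97.8 and 90.6 CPM, a difference of -1.0 (SE 0.21, adjusted p = 0.0320). Nlrp3 (chr11:59541568-59566956), the inflammasome sensor, stood at 87.8, 144 and 143 CPM against 72.0, 55.8 and 70.3 CPM, a difference of -0.91 (SE 0.18, adjusted p = 0.0237). The E0771-Res2 mice lay close together for these genes, and the E0771-Res1 mice were more spread, with replicate 2 by far the highest for Ptgs2. The rest of the 10 largest decreases were Upp1 (-1.04), a uridine phosphorylase, Clec4n (-0.99), the fungal pattern receptor Dectin-2, Olfm1 (-0.89), Tlr2 (-0.89), a receptor for bacterial lipoproteins, Ass1 (-0.87), the argininosuccinate synthase that regenerates arginine, and Cd74 (-0.87).

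**Figure D2:**
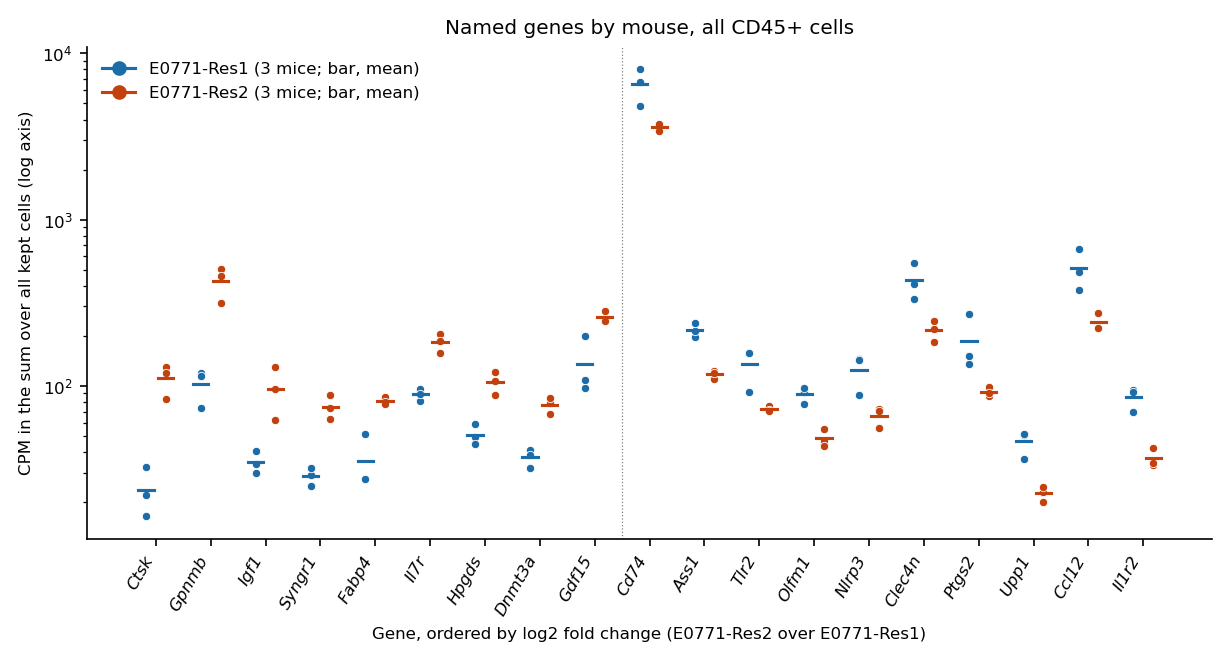
CPM on a log scale in each mouse for 19 of the 20 genes with the largest differences over all kept cells, 3 points for E0771-Res1 and 3 for E0771-Res2 per gene, with a bar at the mean of each line. The rule that chose these genes required that the mice of the lines do not overlap. The gap is narrow for Tlr2, Nlrp3 and Gdf15 (for Gdf15, 200.3 against 243.8 CPM).

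Of the 20 genes with the largest differences, the calls for Ctsk, Gpnmb, Igf1, Syngr1, Il7r, Hpgds, Dnmt3a, Il1r2, Upp1, Olfm1 and Ass1 held under each alternative run. Fabp4, Ccl12, Ptgs2, Clec4n, Nlrp3, Tlr2 and Cd74 lost theirs only when a mouse was left out. Without replicate 3 of E0771-Res2, Fabp4, Ccl12, Ptgs2, Clec4n, Nlrp3, Tlr2 and Cd74 did not pass, and without replicate 1 of that line Ccl12, Ptgs2, Nlrp3, Tlr2 and Cd74 did not. Ptgs2, Nlrp3 and Tlr2 also missed the threshold without replicate 3 of E0771-Res1, Nlrp3 and Tlr2 without replicate 2 of E0771-Res1, and Ptgs2 without replicate 2 of E0771-Res2. None of the 20 changed direction.

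**Figure D3:**
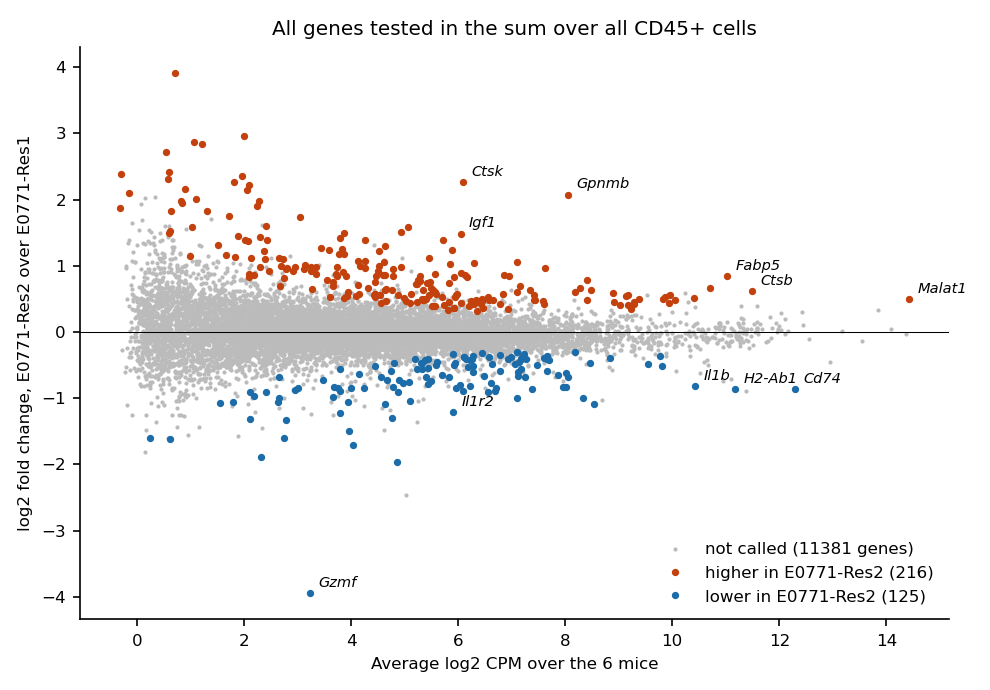
Log2 difference (E0771-Res2 minus E0771-Res1) of the 11722 tested genes over all kept cells against their mean log2 CPM, with the 341 called genes marked by direction. Calls run across the range of levels, with 216 above 0 and 125 below.

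MHC class II genes were lower in E0771-Res2. Of 11 list members tested, 5 fell and none rose, against 1.07% of all tested genes that fell, and the list's median difference was -0.71 against -0.00383 over all genes. Cd74, the invariant chain that guards the peptide groove, stood at 6740, 4839 and 8014 CPM in E0771-Res1 and at 3574, 3412 and 3764 CPM in E0771-Res2, a difference of -0.87 (SE 0.15, adjusted p = 0.0133). H2-Ab1 (chr17:34257689-34269419), the beta chain of I-A, stood at 3204, 1977 and 3789 CPM against 1536, 1631 and 1773 CPM, a difference of -0.86 (SE 0.18, adjusted p = 0.0339). H2-DMa (chr17:34119541-34139101) and H2-DMb1, the chains of the chaperone that loads peptide, fell by 0.68 (SE 0.09) and 0.84 (SE 0.13), and Ciita (chr16:10480059-10528418) fell by 0.73 (SE 0.15). Replicate 2 was the E0771-Res1 mouse nearest to E0771-Res2 for H2-Ab1, Cd74 and Ciita.

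The H2-Aa and H2-Eb1 chains did not pass, with differences of -0.71 (adjusted p = 0.0638) and -0.74 (adjusted p = 0.0806), nor did H2-Oa (0.20) and H2-Eb2 (0.18), which were at low levels. H2-DMa kept its call under each alternative, H2-DMb1 lost it without replicate 3 of E0771-Res2, Ciita without replicates 1 or 3 of either line, and H2-Ab1 without any mouse but replicate 2 of E0771-Res1. MHC class I and peptide loading genes gave no call among 23 tested, with a median of -0.101. The GTPases and chemokines induced by interferon-gamma, a known inducer of Ciita, gave no call among 22, with 18 negative and a median of -0.157. Cxcl9 in that list stood at 297, 219.6 and 415 CPM against 193, 196 and 168 CPM (-0.74, adjusted p = 0.0563). In the cells outside the lymphoid gate, 19 of the 22 were negative and 1 fell, against 1.25% of all genes tested there that fell. Of 43 type I interferon-stimulated genes, 1 rose, Slfn4, by 0.61 (adjusted p = 0.0216), against 1.84% of all tested genes that rose.

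In the IL-1 and IL-18 system, 4 of 15 tested genes fell and none rose, against 1.07% of all tested genes that fell, with a list median of -0.13. Il1b (chr2:129364570-129371139), the secreted cytokine that the inflammasome matures, stood at 1529, 2218 and 1553 CPM in E0771-Res1 and at 1117, 939 and 953 CPM in E0771-Res2, a difference of -0.82 (SE 0.14, adjusted p = 0.0127). Il1a (chr2:129299610-129309972) was rarer, at 9.12, 16.03 and 7.61 CPM against 3.04, 4.37 and 3.04 CPM, a difference of -1.60 (SE 0.27, adjusted p = 0.0134). The other called members were the decoy receptor Il1r2 and Nlrp3, so the list held a ligand pair, a sensor and an inhibitor that all moved down. Il18 (-0.11, adjusted p = 0.655) and the receptor antagonist Il1rn (-0.15, adjusted p = 0.487) did not pass. Without replicate 3 of E0771-Res2, Il1a and Il1b missed the threshold, as Il1a did without replicate 1.

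Of 26 NF-kB response genes, 24 had a negative difference but only 3 (Ptgs2, Il1b and Il1a) passed, against 1.07% of all tested genes that fell, and the median was -0.285. Tnf stood at 125, 258 and 232 CPM against 125, 133 and 141 CPM (-0.61, adjusted p = 0.14), with overlap at replicate 1 of E0771-Res1, and Nfkbia, the inhibitor that NF-kB itself induces, gave -0.63 (adjusted p = 0.0881). None of 8 CXC chemokines passed over all cells, and Cxcl2, a neutrophil attractant, stood at 2476, 4976 and 2889 CPM against 1535, 2025 and 2031 CPM (-0.89, adjusted p = 0.0592). Among 13 CC chemokines Ccl12 and Ccl24 fell, Ccl24 by 1.49 (adjusted p = 0.0307), while Ccl3 (0.01) and Ccl4 (0.06) differed by less than the spread between mice. Among 14 chemokine receptors Ccr2, the receptor through which monocytes leave the marrow, fell by 0.63 (adjusted p = 0.0459), and Cxcr6 fell by 1.06 (adjusted p = 0.00935). Beside the CC chemokine and receptor lists stands the same 1.07% of all tested genes that fell. Ccl24 lost its call without any mouse but replicate 1 of E0771-Res1 and without the cells of highest Scrublet score, and Ccr2 without replicates 2 or 3 of E0771-Res1 or replicates 1 or 3 of E0771-Res2, with all deposited cells, and without mitochondrial, ribosomal and unnamed genes. Neutrophils also make Il1r2 and Il1b. The list of 11 neutrophil markers summed to 105 to 298 CPM in E0771-Res1 and 95.9 to 181 CPM in E0771-Res2, with Ngp at 0, and none of its 7 tested genes passed (median -0.69). Its part in these differences was not tested.

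Of 45 lysosomal genes tested, 38 had a positive difference, 6 rose and 1 fell, against 1.84% of all tested genes that rose and 1.07% that fell, with a median of 0.253. Besides Ctsk these were Atp6v0d2 (0.92), a subunit of the proton pump, Gaa (0.63), the acid glucosidase that digests glycogen, Ctsb (0.61), a cysteine protease, Cd68 (0.56), the macrophage membrane glycoprotein, and Grn (0.50), the precursor of granulins. Ctsb stood at 2252, 2575 and 2013 CPM in E0771-Res1 and at 3970, 2899 and 3590 CPM in E0771-Res2, so that replicate 2 again was the lowest E0771-Res2 mouse. Ctsd, the aspartic protease, had a difference of 0.56 that did not pass (adjusted p = 0.0773), and Ctsc, which activates granule proteases, fell by 0.48 (adjusted p = 0.0322). Without replicate 1 or 3 of E0771-Res2, Ctsb, Cd68 and Atp6v0d2 did not pass, and Ctsb and Cd68 did not pass without replicate 3 of E0771-Res1. Atp6v0d2 also lost its call with each cell thinned to 2500 UMIs.

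The list of lipid-associated macrophage genes moved in both directions. Of 23 tested, 5 rose (Ctsk, Gpnmb, Fabp4, Fabp5 and Plin2, the coat protein of lipid droplets) and 3 fell (Lpcat2, an enzyme of phosphatidylcholine and platelet-activating factor synthesis, by 0.79, Pltp, a phospholipid carrier, by 0.66, and the tetraspanin Cd9 by 0.37), against the same 1.84% and 1.07%, with a median of 0.186. Trem2, the lipid receptor whose name such cells carry, stood at 153, 139 and 114 CPM in E0771-Res1 and at 219.5, 146 and 183 CPM in E0771-Res2, which overlap, with a difference of 0.43 (SE 0.15, adjusted p = 0.142). Apoe, Lpl and Spp1 did not pass either, at 0.15, 0.28 and -0.24. The C1q chains, made by many tissue macrophages, did not differ beyond the spread between mice: C1qa stood at 2280, 1454 and 1402 CPM against 1891, 1164 and 1743 CPM (-0.10, SE 0.20), and C1qb and C1qc gave 0.09 and 0.14. C3ar1, the receptor for C3a, was the only called gene of 17 tested in the complement list, with a rise of 0.64 (adjusted p = 0.0307).

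Among macrophage markers, Cd68 rose (0.56), Mrc1, the mannose receptor, fell from 98.1 to 165 CPM in E0771-Res1 to 64.1 to 81.8 CPM in E0771-Res2 (-0.85, adjusted p = 0.0235), and Adgre1, which encodes F4/80, gave -0.05. The 11 macrophage markers together summed to 8327 to 13030 CPM in E0771-Res1 and 9752 to 13250 CPM in E0771-Res2, and the 11 monocyte markers to 5368 to 7761 and 5253 to 7219 CPM, so neither sum separated the lines. The 9 conventional dendritic cell markers summed to 271 to 304 CPM in E0771-Res1 and 211 to 261 CPM in E0771-Res2. The 8 plasmacytoid dendritic cell markers summed to 1149 to 1251 and 1354 to 1550 CPM, so both dendritic cell sums separated the lines. Of single genes, 24.3% did so. None of the 9 conventional and 1 of the 8 plasmacytoid markers was called. Neither sum was confined to cells outside the gate. In the gate the plasmacytoid sum was 933 to 1015 and 1094 to 1194 CPM. The conventional sum was 714 to 923 and 743 to 843 CPM in gated cells with under 20 myeloid UMIs, against 216 to 252 and 186 to 209 CPM in other cells. Its list includes Klrd1, which gave 1238, 337 and 447 UMIs in the gate of E0771-Res1 mice against 581, 667 and 441 in E0771-Res2. In other cells Klrd1 gave 750, 252 and 255 against 415, 338 and 438 UMIs. The conventional sum without Klrd1 was not computed, so its separation is not read as one of dendritic cells. Sums of the mature and XCR1+ dendritic cell markers overlapped. The part of dendritic cells in the differences was not tested. Mrc1 was also the only called gene of 18 tested in the list of efferocytosis and scavenger receptors. In the arginine metabolism list Ass1 fell from 195, 212 and 238 CPM to 124, 110 and 120 CPM (-0.87, SE 0.09, adjusted p = 0.00165), and Arg1, which splits arginine, ranged from 3.67 to 45.4 CPM in E0771-Res1 and from 2.12 to 17.4 CPM in E0771-Res2 without a call (-1.06, adjusted p = 0.509). In the eicosanoid list, Hpgds rose and Ptgs2 fell among 22 genes. Among 11 matrix metalloproteinase genes Mmp27 rose by 1.73 (adjusted p = 0.00386). Among 21 growth factor genes of the TGF-beta list Igf1 rose, and Tgfbi (-0.51) and Osm (-0.68), a cytokine of the IL-6 family, fell. Beside these lists, 1.84% of all tested genes rose and 1.07% fell.

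Genes of hypoxia and glycolysis (34 tested), cholesterol synthesis and uptake (21), NRF2 targets (20) and checkpoint ligands with costimulators (21) gave no call over all cells. The difference was negative for 21, 10, 19 and 10 of them in that order, and the median of the NRF2 targets was -0.177. Of 42 cell cycle genes, 40 had a negative difference but only Tk1 passed, against 1.07% of all tested genes that fell, with a list median of -0.303. Among markers of cells that the sort should not hold, Krt8 rose from 3.24 to 4.20 CPM in E0771-Res1 to 6.37 to 7.37 CPM in E0771-Res2 (0.92), while the sum of the 9 tumor epithelial markers did not separate the lines (7.98 to 13.6 against 10.6 to 12.3 CPM). The other tested markers of that list had negative differences that did not pass, Cdh1 -1.09 (edgeR adjusted p = 0.0924) and Epcam -0.88 (adjusted p = 0.292). The sum of 7 endothelial markers separated the lines, at 84.8 to 98.5 against 108 to 143 CPM, with Kdr higher by 0.89. Of its 4 tested members, 2 had a positive and 2 a negative difference (-0.201 to 1.52). Only 1 of them passed, against 1.84% of all tested genes that rose. In gated cells the sum was 52.5 to 64.15 and 63.28 to 104.6 CPM. The part of such cells in the differences was not tested.

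**Figure D4:**
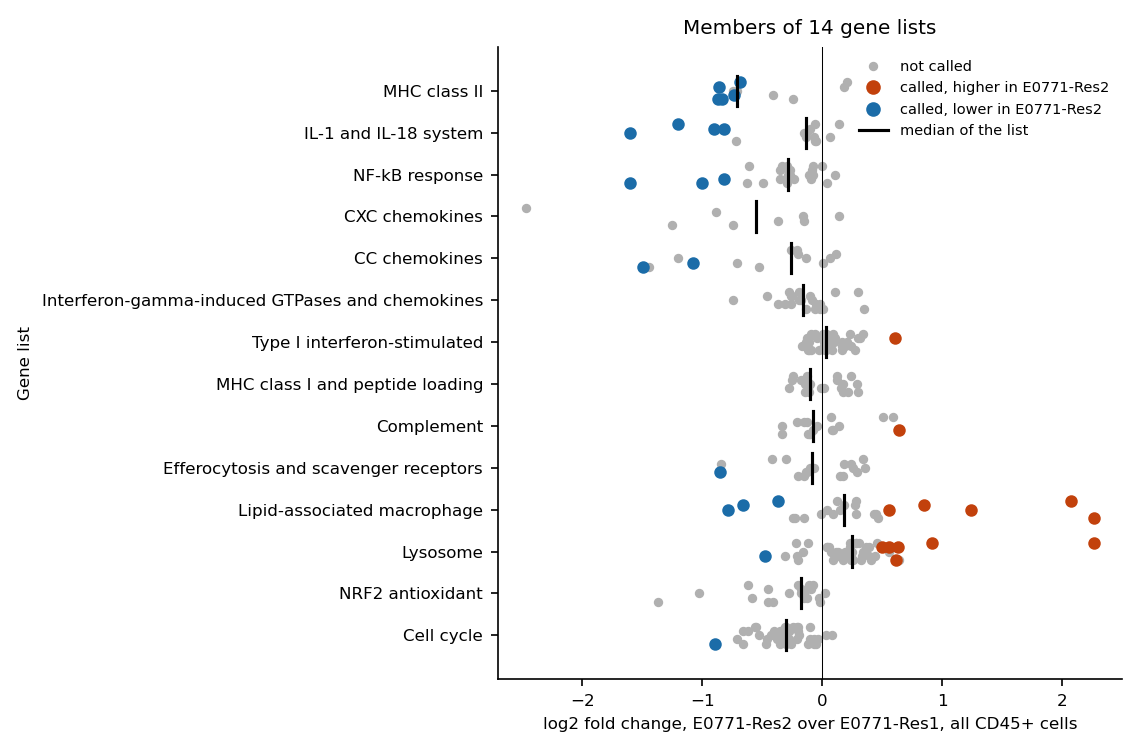
Log2 difference (E0771-Res2 minus E0771-Res1, all kept cells) of each tested member of 14 gene lists, with called genes colored by direction and a black bar at the median of the list. MHC class II (-0.71) and CXC chemokines (-0.56) have the lowest medians of the 14 lists, and the lysosomal genes have the highest (0.253).

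Outside the lymphoid gate, 329 of 11280 genes differed (2.92%), 188 higher (1.67%) and 141 lower (1.25%) in E0771-Res2. Of the 216 genes higher over all cells, 177 were also called here, which is 81.9% of that list and 94.1% of the other-cell list, and of the 125 lower genes 111 were, or 88.8% and 78.7%. These sums share most of their cells. The same genes led: Ctsk (2.18), Gpnmb (2.02), Igf1 (1.37) and Syngr1 (1.34) rose and Il1r2 (-1.43), Ccl12 (-1.17), Upp1 (-1.14), Ptgs2 (-1.06) and Clec4n (-1.04) fell. Tnni2, a troponin subunit best known from muscle, stood at 17.9, 14.01 and 16.2 CPM against 51.8, 44.3 and 47.6 CPM, a difference of 1.55 (SE 0.12, adjusted p = 0.000561) that held under each alternative. Cxcl2 passed in these cells, at 2767, 5626 and 3192 CPM against 1604, 2212 and 2119 CPM (-0.96, adjusted p = 0.0491). Calls numbered 596 without replicate 1 of E0771-Res1, 193 and 177 without replicates 2 and 3 of E0771-Res1, and 122 and 41 without replicates 1 and 3 of E0771-Res2.

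The share of cells in which a transcript was found moved with the sums. For these shares, the gate and the limit of 20 myeloid UMIs were read on the counts before thinning. After thinning each cell to 2500 UMIs, Gpnmb was detected in 10.8%, 16.2% and 12.9% of the other cells of E0771-Res1 and in 40.4%, 30.7% and 40.2% of those of E0771-Res2, and in positive cells its mean was 1.86 to 2.22 and 3.29 to 3.60 UMIs. Without thinning the shares were 22.8% to 27.4% and 40.4% to 53.4%. In gated cells with under 20 myeloid UMIs, which should largely lack Gpnmb, the thinned shares were 6.38% to 10.5% and 7.69% to 16.9%. Ctsk was detected in 4.06%, 7.59% and 3.34% of thinned other cells against 19.6%, 12.3% and 17.9% (unthinned 8.16% to 13.9% and 19.0% to 29.4%), and in 0.0% to 7.89% and 2.04% to 7.69% of the thinned gated cells with few myeloid UMIs. Gpnmb and Ctsk were thus both found in more cells, and at more UMIs per positive cell, in each E0771-Res2 mouse.

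Nlrp3 was found in 21.4%, 28.1% and 30.2% of thinned other cells of E0771-Res1 and in 17.1%, 11.7% and 16.9% of those of E0771-Res2 (unthinned 43.4% to 54.8% and 26.3% to 34.5%), against at most 4.97% in the gated cells with few myeloid UMIs. Cd74 remained common, in 91.4%, 89.2% and 90.1% against 84.0%, 83.4% and 85.5% of thinned other cells (unthinned 97.5% to 98.2% and 94.4% to 95.5%), but its mean in positive cells was 13.8 to 21.6 UMIs in E0771-Res1 and 9.97 to 10.3 UMIs in E0771-Res2. The gated cells with few myeloid UMIs carried Cd74 in 65.8% to 73.2% and 59.2% to 80.0%. H2-Ab1 overlapped in its shares (58.9% to 76.0% against 57.7% to 65.0% thinned) and separated in its mean per positive cell (8.15 to 11.98 against 6.09 to 6.82 UMIs).

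The parental tumors gave a further point of reference, from 2 mice with no test. Of the 20 genes with the largest differences, the parental mean was nearer to E0771-Res1 for 18 and nearer to E0771-Res2 for 2, Ccl12 and Clec4n, and it lay between the lines for 10. Parental Ctsk stood at 20.8 and 24.5 CPM beside means of 23.7 CPM in E0771-Res1 and 111 CPM in E0771-Res2 on the scale of the 8 mice. Parental Gpnmb stood at 89.3 and 94.4 CPM beside 103 and 427 CPM, and parental Cd74 at 6401 and 6391 CPM beside 6537 and 3588 CPM. Igf1 and Il1r2 lay beyond E0771-Res1, at 18.3 and 14.4 CPM beside 34.7 and 95.9 CPM and at 108 and 114 CPM beside 85.2 and 36.7 CPM. These 20 genes were picked for their contrast between the lines, and genes outside them went either way. The parental mean of H2-Ab1 was 2835 CPM beside 2993 and 1649 CPM, and that of Mrc1 was 69.5 CPM beside 134 and 74.8 CPM.

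Within the lymphoid gate, 69 of 8990 genes differed (0.768%), 54 higher (0.601%) and 15 lower (0.167%) in E0771-Res2. The increases were again led by Ctsk (2.83), Gpnmb (2.42), Igf1 (2.29), Fabp4 (2.20) and Syngr1 (1.56), macrophage genes, and 9 of 44 lysosomal genes rose, against 0.601% of all genes tested there. Of the 54 higher genes 33, or 61.1%, were also called in the other cells, which is 17.6% of that list. Beside this stand the share of gated cells with many myeloid UMIs, given above, and the macrophage marker sum in the gate, at 4997 to 7412 CPM in E0771-Res1 and 6503 to 8580 CPM in E0771-Res2. Over the gated cells with under 20 myeloid UMIs, 12 of 6094 genes differed (0.197%), and of the 69 genes 9 were called. The 10 that rose there included genes of macrophages and their lysosomes, Cd68 (1.09), Ms4a7 (1.01), Lgmn (0.95), Grn (0.91), Ctsb (0.76) and Apoe (0.76), and the macrophage marker sum was 776 to 818 CPM in E0771-Res1 and 1240 to 1481 CPM in E0771-Res2. Cd68 helped choose these cells, as did C1qa, C1qb, C1qc and Csf1r of the marker sum, so their values are partly set by the cut. The cut is also a fixed number of UMIs. Median UMIs of these cells were 7490.5, 7003 and 6030 in E0771-Res1 against 6737.5, 4956 and 6145 in E0771-Res2. The part of the cut in these increases was not tested.

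The 5 named decreases in the gate were Gzmf, Cxcr6, Tk1, Naaa and Areg, Naaa being a lysosomal amidase of lipid amides. Gzmf (chr14:56205263-56211417), a granzyme of activated cytotoxic cells, gave 384, 151 and 43 UMIs in the gated cells of E0771-Res1 and 5, 11 and 1 in those of E0771-Res2, a difference of -5.07 (SE 0.63, adjusted p = 0.00245). Those UMIs came from 10, 3 and 3 cells in E0771-Res1, and 1 cell held 50.5%, 98.7% and 53.5% of each sum, so the difference rests on few cells. Gzmf lies among near-identical granzyme genes whose reads can be split between them, and its count is uncertain for that reason. Gzmd and Gzme did not pass (-1.24 and -1.19), and Gzmc stood at 1905, 1041 and 1587 CPM against 1298, 1061 and 634 CPM (-0.61, adjusted p = 0.253). Over gated cells with few myeloid UMIs, Gzmf (-4.94) and Ccl1 (-4.03), a chemokine of activated T cells, were the 2 genes that fell (0.0328% of those tested). None of the 11 CC chemokines tested in the whole gate passed, so the Ccl1 call rests on the split chosen after the data were seen. The cells behind the Ccl1 difference were not counted.

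Cxcr6 (chr9:123806475-123811760), a chemokine receptor of tissue-resident T and NK cells, stood at 119, 135 and 100.1 CPM in the gated cells of E0771-Res1 and at 48.2, 41.7 and 83.3 CPM in those of E0771-Res2, a difference of -1.02 (SE 0.20, adjusted p = 0.0186). Over gated cells with few myeloid UMIs its difference was -1.13 and did not pass (adjusted p = 0.169). Areg, an EGF receptor ligand that regulatory T cells and innate lymphocytes can make, stood at 128, 126 and 117 CPM against 63.6, 84.5 and 41.9 CPM (-0.96, adjusted p = 0.0148), and at -0.99 (adjusted p = 0.0904) in the narrower set. Cd8b1 (chr6:71322788-71337494), the beta chain of CD8, stood at 95.8, 126 and 115 CPM against 39.2, 79.3 and 51.5 CPM (-0.95, SE 0.19, adjusted p = 0.0293), and at -1.18 (adjusted p = 0.0737) in the narrower set, where Cd8a gave -0.83 (adjusted p = 0.172). The mice of the lines did not overlap for Cxcr6, Areg or Cd8b1 in the whole gate, as for 16.3% of genes tested there. Without replicate 2 or 3 of E0771-Res1 or replicate 1 of E0771-Res2, none of these 3 genes passed, nor did Cxcr6 and Areg without replicate 1 of E0771-Res1 or Cd8b1 without replicate 3 of E0771-Res2.

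Few other lymphocyte genes were called in the gate, where 0.768% of all tested genes were, a share at which lists this short seldom hold a call. None of 17 T cell checkpoint and exhaustion genes, 19 NK receptor genes or 7 natural killer cell markers passed, with medians of -0.188, -0.172 and 0.0513, nor did any of the 6 T cell markers that the gate did not use (-0.128). The difference was negative for 15, 11, 3 and 6 genes of these lists. Of 20 cytotoxic effector and cytokine genes only Gzmf passed. Gzmb stood at 1055, 871 and 815 CPM against 858, 863 and 737 CPM (-0.16, adjusted p = 0.601), and Pdcd1, which encodes PD-1, at 47.9, 68.1 and 51.9 CPM against 55.6, 51.4 and 38.9 CPM (-0.13, adjusted p = 0.834). Of 42 cell cycle genes, 41 had a negative difference and 2 passed, Tk1 (-1.02) and Tyms (-0.85), both enzymes of thymidine nucleotide synthesis, with a list median of -0.42. Beside the cytotoxic and cell cycle lists, 0.167% of all genes tested in the gate fell.

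Over gated cells with few myeloid UMIs, none of 16 checkpoint and exhaustion genes, 19 NK receptor genes or 8 natural killer cell markers passed either, with medians of -0.0485, 0.0939 and 0.484. Genes that set the gate were left out of the lists in the whole gate but not here, so Ncr1 is among the 8 markers. These medians are therefore not compared with those of the whole gate. Of 19 cytotoxic genes only Gzmf passed (list median 0.129), against 0.0328% of all genes tested there that fell. Gzmb turned to 0.39 (adjusted p = 0.763), and Pdcd1 gave -0.30 (adjusted p = 0.925). None of 37 cell cycle genes passed and 35 had a negative difference, with a median of -0.38, and Tk1 (-0.54, adjusted p = 0.762), Tyms (-0.65, adjusted p = 0.593) and Naaa (-0.37, adjusted p = 0.936) did not pass in that set. Il7r rose by 0.71 in the whole gate (adjusted p = 0.0497) and turned to -0.37 (adjusted p = 0.906) over gated cells with few myeloid UMIs. In that narrower set Il7r was found in 23.4%, 36.8% and 31.0% of thinned cells in E0771-Res1 against 13.8%, 18.7% and 20.4% in E0771-Res2, while in thinned other cells it was found in 12.2%, 14.6% and 13.8% against 27.9%, 23.1% and 25.6%. Unthinned, the shares of the narrower set were 38.4% to 47.5% and 23.6% to 32.7%, and those of the other cells 23.6% to 25.3% and 32.9% to 39.9%. Calls in the gate numbered 41 and 6 without replicates 2 and 3 of E0771-Res1, and 21, 215 and 28 without replicates 1, 2 and 3 of E0771-Res2.

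**Figure D5:**
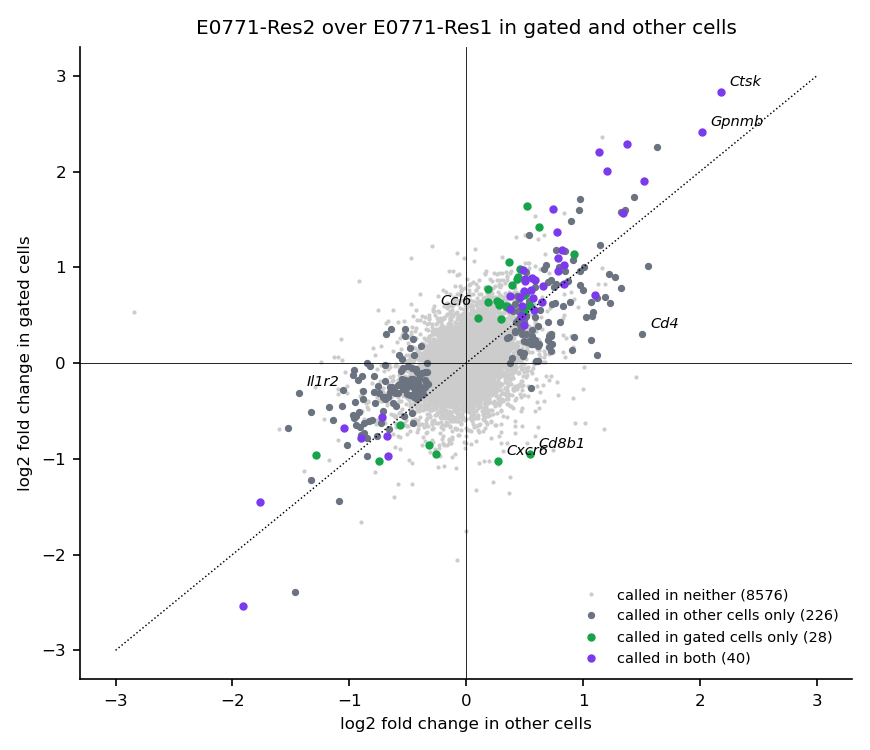
Log2 difference (E0771-Res2 minus E0771-Res1) in gated cells against that in the other cells for the 8870 genes tested in both, with genes called in both (40), only in the other cells (226) and only in the gate (28) marked. The dotted line marks equal differences. Ctsk and Gpnmb lie far above 0 on both axes, Il1r2 is below -1 only among the other cells, and Gzmf and S100a9 are absent because they were not tested on both sides.

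A test of whether the line difference itself differed between gated and other cells, with each mouse as its own block, called 5 of 10854 genes (0.0461%), 3 with a higher difference in the gate (0.0276%) and 2 with a lower one (0.0184%). Il1r2 fell outside the gate, from 68.4, 98.9 and 90.4 CPM to 29.2, 29.7 and 35.5 CPM, and stood at 80.2, 66.8 and 96.4 CPM against 58.8, 58.8 and 82.7 CPM inside it (-0.31, adjusted p = 0.51). Cd4 rose outside the gate, from 9.26, 7.23 and 7.39 CPM to 27.2, 20.7 and 21.6 CPM (1.5, SE 0.16, adjusted p = 0.00119), and gave 0.30 inside it. After thinning, 1.54%, 1.48% and 1.25% of the other cells of E0771-Res1 mice and 4.88%, 3.85% and 3.74% of those of E0771-Res2 mice held a Cd4 UMI, against 10.5% to 21.3% and 16.3% to 21.5% of the gated cells with few myeloid UMIs (unthinned 2.97% to 4.85% and 7.07% to 10.2%, against 20.0% to 33.6% and 24.6% to 33.3%). Cd4 is the coreceptor of helper T cells and is also made by some macrophages and dendritic cells. Outside the gate, the difference was positive for all 9 T cell markers and all 7 tested CD4+ and regulatory T cell markers. It was positive for 3 of 8 natural killer cell markers. Of these markers only Cd4 passed, against 1.67% of genes tested there that rose. The CD4+ and regulatory sum was 55.9 to 73.7 CPM in E0771-Res1 and 90.1 to 105.6 CPM in E0771-Res2. The part of T cells outside the gate was not tested. Ccl6, a monocyte chemokine, gave 0.54 inside and -0.29 outside, neither past the threshold. Gzmf and S100a9 rest on counts near 0 on one side. Gzmf held 10, 2 and 3 UMIs in the other cells of E0771-Res1 mice against 10, 2 and 15 in those of E0771-Res2 mice and was not tested by itself there, and S100a9 held 1, 0 and 1 UMIs in the gated cells of E0771-Res1 and was not tested by itself in the gate, so nothing is read from their line by gate terms.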

How the data were processed

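CD45+ cells of 8 tumors were profiled by droplet single-cell RNA-seq (Chromium 3′ v3.1 in the study's methods; the labels state 3′ libraries where CellPlex tags were used). The deposited files hold raw UMI counts per cell and gene, 32285 genes, which the authors made with Cell Ranger 6.1.2 (mm10) and split by mouse with multiplexing tags. The deposited counts are not normalized. Here, cells with 500 to 6000 genes and under 10% mitochondrial UMIs were kept, and counts were summed per mouse. In each E0771-Res1 and E0771-Res2 mouse, 99.0% to 99.9% of deposited cells had the same tag as their strongest. The share of other tags within a cell was not measured.

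Sums were tested with edgeR 4.0.16 (R 4.3.3; filterByExpr, TMM, quasi-likelihood F test, Benjamini-Hochberg adjustment over all tested genes, threshold 0.05) on 3 against 3 mice, and line by gate in 1 model over 12 sums with a term per mouse. DESeq2 1.42.0 was an alternative. Single values were compared by exact permutation over 20 splits (scipy 1.17.1). Counts are single molecules, and intervals and shares cover counting error only. Scrublet (scanpy 1.11.5) was used for doublets.

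Gene lists, members, thresholds and tests were chosen with earlier results of these data known. There were 48 lists with 773 symbols, of which 768 were in the files. Genes named were the up to 10 per direction (5 in gated or other cells, 4 for the difference between them) with the largest change among called genes of mean log2 CPM of at least 5 and no overlap between lines, leaving out mitochondrial, ribosomal, unnamed and receptor segment genes; the 4 members of smallest p in each list; and 17 genes that the study names for its myeloid clusters or for macrophage polarization. Further list members are named where the count of called members is given, and were chosen after their values were seen. On simulated data with 2-fold changes, 84.5% (all cells, 11576 genes), 72.5% (gate, 8806 genes) and 73.7% (other cells, 11150 genes) were recovered, and 8.43%, 8.5% and 7.6% of calls were false. Gene positions are from GENCODE M21 (GRCm38). Results for some genes are not reported here.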

Additional observations from a re-analysis of the deposited data

Results flagged for a closer look

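For 5 genes the difference between E0771-Res2 and E0771-Res1 in gated cells differed from that in the other cells (edgeR quasi-likelihood test of the line by gate term, adjusted p under 0.05). Groups of 3 mice are too small for a test of outlying samples.

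The difference of differences for Gzmf was -5.65 (adjusted p = 0.0135), and 1 cell held 98.7% of the Gzmf UMIs of the gate in replicate 2 of E0771-Res1. In the other cells Gzmf held 2 to 15 UMIs per mouse and was not tested by itself. For S100a9 it was 6.19 (adjusted p = 0.0223); the gated cells held 1, 0 and 1 UMIs in E0771-Res1 against 2, 27 and 62 in E0771-Res2, and 59 of the last sum were in 1 cell. S100a9 was not tested by itself in the gate and entered the model through the other cells, so for both genes the value rests on counts near 0 and no direction is read from it. For Il1r2 it was 1.06 (adjusted p = 0.0223), for Ccl6 0.79 (adjusted p = 0.0221) and for Cd4 -1.19 (adjusted p = 0.0223).

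Over gated cells with under 20 myeloid UMIs, Gzmf, S100a9 and Cd4 were still called and Il1r2 (0.82) and Ccl6 (0.58) were not. None of the 5 was called when every cell was thinned to 2500 UMIs, where S100a9 gave 1.25 and Cd4 -1.46. All 5 kept their direction under each alternative run. Gzmf was not called with all deposited cells, or without replicate 3 of E0771-Res2. Without replicate 3 of E0771-Res1, Gzmf alone was called, and without replicate 3 of E0771-Res2, S100a9 alone. Without replicate 2 of E0771-Res1, S100a9 was not called, and without replicate 2 of E0771-Res2, Cd4 was not.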

How the results depend on the processing

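Over all kept cells, 341 genes were called; testing every gene with a count gave 1111 and fitting all 8 mice together 517, and leaving out 1 mouse gave 48 to 482. In the other cells (329 called) these were 1031 without the filter and 41 to 596 on leaving out a mouse. In the gate (69 called), no filter gave 317, thinning to 2500 UMIs 20, a gate of 1 UMI 146, a gate of 3 UMIs 45, only cells with under 20 myeloid UMIs 12, and leaving out a mouse 6 to 215. For the difference between gated and other cells (5 called), no filter gave 87, thinning 17, the cells with under 20 myeloid UMIs 14, and leaving out a mouse 1 to 19. Thinning also left out cells under 2500 UMIs and drew the gate again on the thinned counts. Replicates of each line are numbered 1 to 3, but the labels give each a mouse number of its own, so the replicate numbers do not pair them. Same-numbered replicates did not deviate together (correlations of 0.042, -0.012 and 0.065). With the replicate number as a block, 392, 449 and 141 genes were called over all, other and gated cells. The share of calls higher in E0771-Res2, 63.3% over all cells, was 50.1% without the filter and 42.7% without replicate 1 of E0771-Res1. DESeq2 called 463, 437 and 67 genes. Il7r in the gate reversed to -0.12 when thinned, where the gate was drawn again, and to -0.37 over cells with under 20 myeloid UMIs. Over all cells, Hbb-bs reversed to 1.43 without replicate 1 of E0771-Res1. The cause of these shifts was not tested.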
